A study of Mus musculus with 12 samples.

Results

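The expression of 9 oligodendrocyte lineage genes was followed library by library in primary cultures of mouse entorhinal cortex (EC) neurons. The genes were chosen by symbol, as known genes of the lineage, and they are 9 of the 24100 genes counted: Pdgfra and Cspg4, which mark precursor cells; the transcription factor genes Olig1, Olig2 and Sox10; and the myelin genes Mbp, Cnp, Mag and Mobp. The choice was made with earlier results of these data known. All 9 were in the count table, and 8 of the 9 passed the filter on low counts in at least 1 comparison. The study asked how the DNA-binding protein DEK alters gene expression in EC neurons, and the cultures came from embryos at day 17 (E17), received an adeno-associated virus (AAV1) after 7 days in vitro and were harvested 4 days later. There were 4 groups of 3 libraries. In the Dek silencing group the virus carried a small hairpin RNA against Dek behind the U6 promoter together with mCherry, and the scrambled control carried a non-targeting hairpin in the same design. In the Dek overexpression group the virus carried mouse Dek cDNA and mCherry behind hSyn1, a neuronal promoter, and the empty vector control carried hSyn1, mCherry and the element WPRE, without Dek. No culture was left without virus, and each control matched its own arm only, since the hairpin and cDNA viruses differed in promoter and cargo.

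In the brain, oligodendrocytes wrap axons in myelin and arise from precursor cells that divide in response to platelet-derived growth factor. OLIG1, OLIG2 and SOX10 set up the lineage, OLIG2 early and SOX10 through to the myelinating stage, where it drives myelin genes. Several of these genes are also used elsewhere: Pdgfra by meningeal fibroblasts, Cspg4 by pericytes, Sox10 by Schwann cells, Olig1 and Olig2 by neural progenitors and some astrocytes, and the Mbp locus makes golli transcripts that neurons express. In cultures harvested whole, fewer cells of a type and less RNA per cell cannot be told apart.

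The members behaved in 3 ways across the 4 groups. Cnp and Mag were higher in silencing than in both controls, and Mbp, Pdgfra, Cspg4 and Sox10 were lower in the scrambled control than in both the silencing and the overexpression group. Mag passed the filter on low counts only in comparisons that include silencing, the group where its counts were highest. Olig1 and Olig2 were higher in silencing than in the empty vector control only. To show the DNA at the start of a gene of each kind, the windows of 250 bases before to 50 bases after the annotated start are given for Cnp, Pdgfra and Olig2, from RefSeq on GRCm38.p6, all on the plus strand. Capitals mark the letters CANNTG, the E-box that basic helix-loop-helix proteins such as OLIG1 and OLIG2 bind, and ACAAAG or ACAATG, to which SOX proteins bind, on either strand.
Cnp, chr11:100574689-100574988: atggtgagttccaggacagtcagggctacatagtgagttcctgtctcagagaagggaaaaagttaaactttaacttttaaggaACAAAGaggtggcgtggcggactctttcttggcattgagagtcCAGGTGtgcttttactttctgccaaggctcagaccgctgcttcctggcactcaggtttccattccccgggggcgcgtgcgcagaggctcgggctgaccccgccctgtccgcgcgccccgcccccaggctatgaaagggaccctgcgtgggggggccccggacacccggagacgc
Pdgfra, chr5:75152001-75152300: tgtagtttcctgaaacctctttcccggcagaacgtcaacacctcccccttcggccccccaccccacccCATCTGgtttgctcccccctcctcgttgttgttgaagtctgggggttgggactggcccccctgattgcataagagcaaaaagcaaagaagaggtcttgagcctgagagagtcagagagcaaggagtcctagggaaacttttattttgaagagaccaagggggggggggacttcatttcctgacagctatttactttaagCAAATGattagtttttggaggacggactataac
Olig2, chr16:91225300-91225599: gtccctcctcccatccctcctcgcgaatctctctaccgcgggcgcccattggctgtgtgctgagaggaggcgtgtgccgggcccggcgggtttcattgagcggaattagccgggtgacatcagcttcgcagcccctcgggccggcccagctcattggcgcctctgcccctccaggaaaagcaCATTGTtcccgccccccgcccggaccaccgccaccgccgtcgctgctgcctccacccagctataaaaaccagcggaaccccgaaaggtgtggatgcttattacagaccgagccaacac
The Cnp window held 1 E-box and 1 ACAAAG, the Pdgfra window held 2 E-boxes and neither SOX motif, and the Olig2 window held 1 ACAATG and no E-box. Windows were matched for 6 member genes. Of all 32851 windows of this length in the table, 72.3% held a CANNTG, 18.7% an ACAAAG and 12.6% an ACAATG.

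Library totals ran from 15679567 to 18933382 estimated counts. Dek, the targeted gene, was at 7.98, 6.65 and 8.62 CPM (read counts scaled to a common library size with the TMM factors of edgeR) in silencing, against 35.3, 36.6 and 36.4 in the scrambled control, and at 155.9, 128.8 and 143.1 CPM in overexpression, against 36.0, 38.8 and 41.1 in the empty vector control, so the libraries went with their labels. Neuronal transcripts far outweighed those of the oligodendrocyte lineage: 9 pan-neuronal markers summed to between 7342 and 8503 CPM in the 12 libraries, and the 9 members to between 86.8 and 271.6 CPM. Of the other markers of the lineage, Opalin, made by mature oligodendrocytes, had 4 counts, all in the scrambled control. Nkx6-1 was at 0 in all 12 libraries.

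Pdgfra encodes the receptor through which platelet-derived growth factor drives precursor division, and lies on chromosome 5 from 75152292 to 75198215 of GRCm38. It was at 12.5, 19.7 and 25.5 CPM in silencing replicates 1, 2 and 3, against 2.50, 6.43 and 6.93 in the scrambled control, 16.7, 21.6 and 25.6 in overexpression and 17.3, 11.0 and 5.73 with the empty vector. Each silencing and overexpression library was above each scrambled one, while the empty vector libraries spread over the range from the scrambled to the overexpression values. Pdgfra was higher in silencing than in the scrambled control (log2FC = 1.86, SE 0.45, adjusted p = 0.018, edgeR) and higher in overexpression than in the scrambled control (log2FC = 2.01, SE 0.33, adjusted p = 0.0031). With the empty vector as control its log2FC was 0.77 (SE 0.48, adjusted p = 0.22) for silencing and 0.91 (SE 0.38, adjusted p = 0.76) for overexpression, neither of which passed.

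Cspg4 encodes the NG2 proteoglycan of the precursor surface. Its level was 4.70, 8.39 and 6.65 CPM in silencing, against 1.82, 3.69 and 4.50 in the scrambled control, with 6.12, 8.23 and 7.98 in overexpression and 7.33, 7.17 and 3.77 with the empty vector. As for Pdgfra, silencing and overexpression lay above the scrambled control with no overlap, and empty vector replicate 3 lay among the scrambled values. Cspg4 was higher in silencing than in the scrambled control (log2FC = 0.97, SE 0.32, adjusted p = 0.031) and did not pass between silencing and the empty vector control (log2FC = 0.13, SE 0.28, adjusted p = 0.70). Between overexpression and the scrambled control it was higher in overexpression (log2FC = 1.16, SE 0.26, adjusted p = 0.005).

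Olig1 and Olig2 encode basic helix-loop-helix factors and lie side by side on the plus strand of chromosome 16, Olig2 from 91225457 to 91228677 and Olig1 from 91269772 to 91271933. Olig1 was at 47.0, 109.4 and 114.5 CPM in silencing, against 38.9, 62.7 and 66.6 in the scrambled control, with 29.9, 33.6 and 27.3 in overexpression and 39.7, 35.5 and 27.2 with the empty vector. Olig2 was at 27.1, 42.5 and 48.6 CPM in silencing, against 18.7, 27.8 and 31.6 in the scrambled control, with 14.1, 17.4 and 16.3 in overexpression and 16.2, 17.1 and 14.7 with the empty vector. For both genes silencing replicate 1 lay among the scrambled libraries while replicates 2 and 3 lay above all of them, and every overexpression and empty vector library was lower than scrambled replicates 2 and 3.

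Neither gene passed the test between silencing and the scrambled control (log2FC = 0.68, SE 0.45, adjusted p = 0.27 for Olig1 and log2FC = 0.59, SE 0.30, adjusted p = 0.16 for Olig2). Both were higher in silencing than in the empty vector control, Olig1 with a log2FC of 1.41 (SE 0.42, adjusted p = 0.038) and Olig2 with 1.31 (SE 0.21, adjusted p = 0.0011). Both were lower in overexpression than in the scrambled control, at −0.89 (SE 0.20, adjusted p = 0.011) and −0.71 (SE 0.17, adjusted p = 0.011). The count of Olig1 over that of Olig2 stayed between 1.67 and 2.57 in the 12 libraries. Silencing replicates 2 and 3 had 2.57 and 2.35, and silencing replicate 1 had 1.73.

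Sox10 encodes an HMG-box factor needed from specification to myelination. It was scarce, at 1.24, 2.34 and 3.99 CPM in silencing, against 0.341, 0.596 and 0.770 in the scrambled control, with 1.81, 1.78 and 1.78 in overexpression and 2.06, 0.889 and 0.655 with the empty vector. The scrambled libraries were below every silencing and overexpression library, and summed to 29 counts, against 138 in silencing, 95 in overexpression and 64 with the empty vector. Sox10 was higher in silencing than in the scrambled control (log2FC = 2.15, SE 0.47, adjusted p = 0.0031) and in overexpression than in the scrambled control (log2FC = 1.65, SE 0.31, adjusted p = 0.0015). Against the empty vector control, silencing gave a log2FC of 1.09 (SE 0.50, adjusted p = 0.085).

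Mbp encodes myelin basic protein, which compacts the myelin sheath. It was at 20.4, 15.8 and 18.6 CPM in silencing, against 6.92, 6.79 and 8.59 in the scrambled control, with 16.0, 21.6 and 18.4 in overexpression and 18.4, 19.8 and 20.5 with the empty vector. The other 9 libraries thus lay between 15.8 and 21.6 CPM, and the 3 scrambled libraries lay apart below 8.6 CPM. Mbp was higher in silencing than in the scrambled control (log2FC = 1.28, SE 0.13, adjusted p = 7.4e-06), and the log2FC of silencing against the empty vector control was −0.10 (SE 0.10, adjusted p = 0.41). The scrambled control itself was lower than the empty vector control, with a log2FC of −1.40 (SE 0.11, adjusted p = 8.9e-07). The counts are per gene and do not separate golli from myelin transcripts.

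Cnp encodes the enzyme 2′,3′-cyclic nucleotide 3′-phosphodiesterase of non-compact myelin, and lies on chromosome 11 from 100574904 to 100591729. It was at 45.8, 58.6 and 52.6 CPM in silencing, against 17.3, 22.1 and 24.9 in the scrambled control, with 18.0, 22.3 and 17.3 in overexpression and 20.5, 18.8 and 15.1 with the empty vector. The silencing libraries stood above all 9 others, which formed a single range of 15.1 to 24.9 CPM. Cnp was higher in silencing than in the scrambled control (log2FC = 1.28, SE 0.14, adjusted p = 5e-05) and than with the empty vector (log2FC = 1.54, SE 0.12, adjusted p = 5.9e-07). It overlaps Dnajc7 on the other strand, and whether the counting used strand is not given in the sources used here.

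Mag, a myelin adhesion protein gene, was near the limit of counting, at 1.11, 0.926 and 0.851 CPM in silencing, against 0.284, 0.119 and 0.533 in the scrambled control, with 0.213, 0.474 and 0.115 in overexpression and 0.333, 0.237 and 0.327 with the empty vector. These rest on 51 counts in all in silencing, 16 with the scrambled hairpin, 14 in overexpression and 16 with the empty vector. Like Cnp, Mag was above all other libraries in each silencing library, with a log2FC of 1.58 against the scrambled control (SE 0.46, adjusted p = 0.012) and 1.65 against the empty vector control (SE 0.37, adjusted p = 0.0016). It did not pass the filter on low counts in the comparisons of overexpression with either control or of the controls with each other.

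Mobp, which encodes a small basic protein of compact myelin, had 22 counts over the 3 silencing libraries, 9 in the scrambled control, 5 in overexpression and 4 with the empty vector, and passed the filter in no comparison. Its level was 0.681, 0.273 and 0.319 CPM in silencing, against 0.0568, 0.0596 and 0.415 in the scrambled control, with 0.0532, 0.0592 and 0.172 in overexpression and 0, 0.119 and 0.109 with the empty vector. Silencing and scrambled values overlapped, and silencing lay above the empty vector control. With no filter on low counts the log2FC was 1.19 (SE 0.73, adjusted p = 0.22) for silencing against the scrambled control and 2.33 (SE 0.81, adjusted p = 0.017) against the empty vector control.

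**Figure D1:**
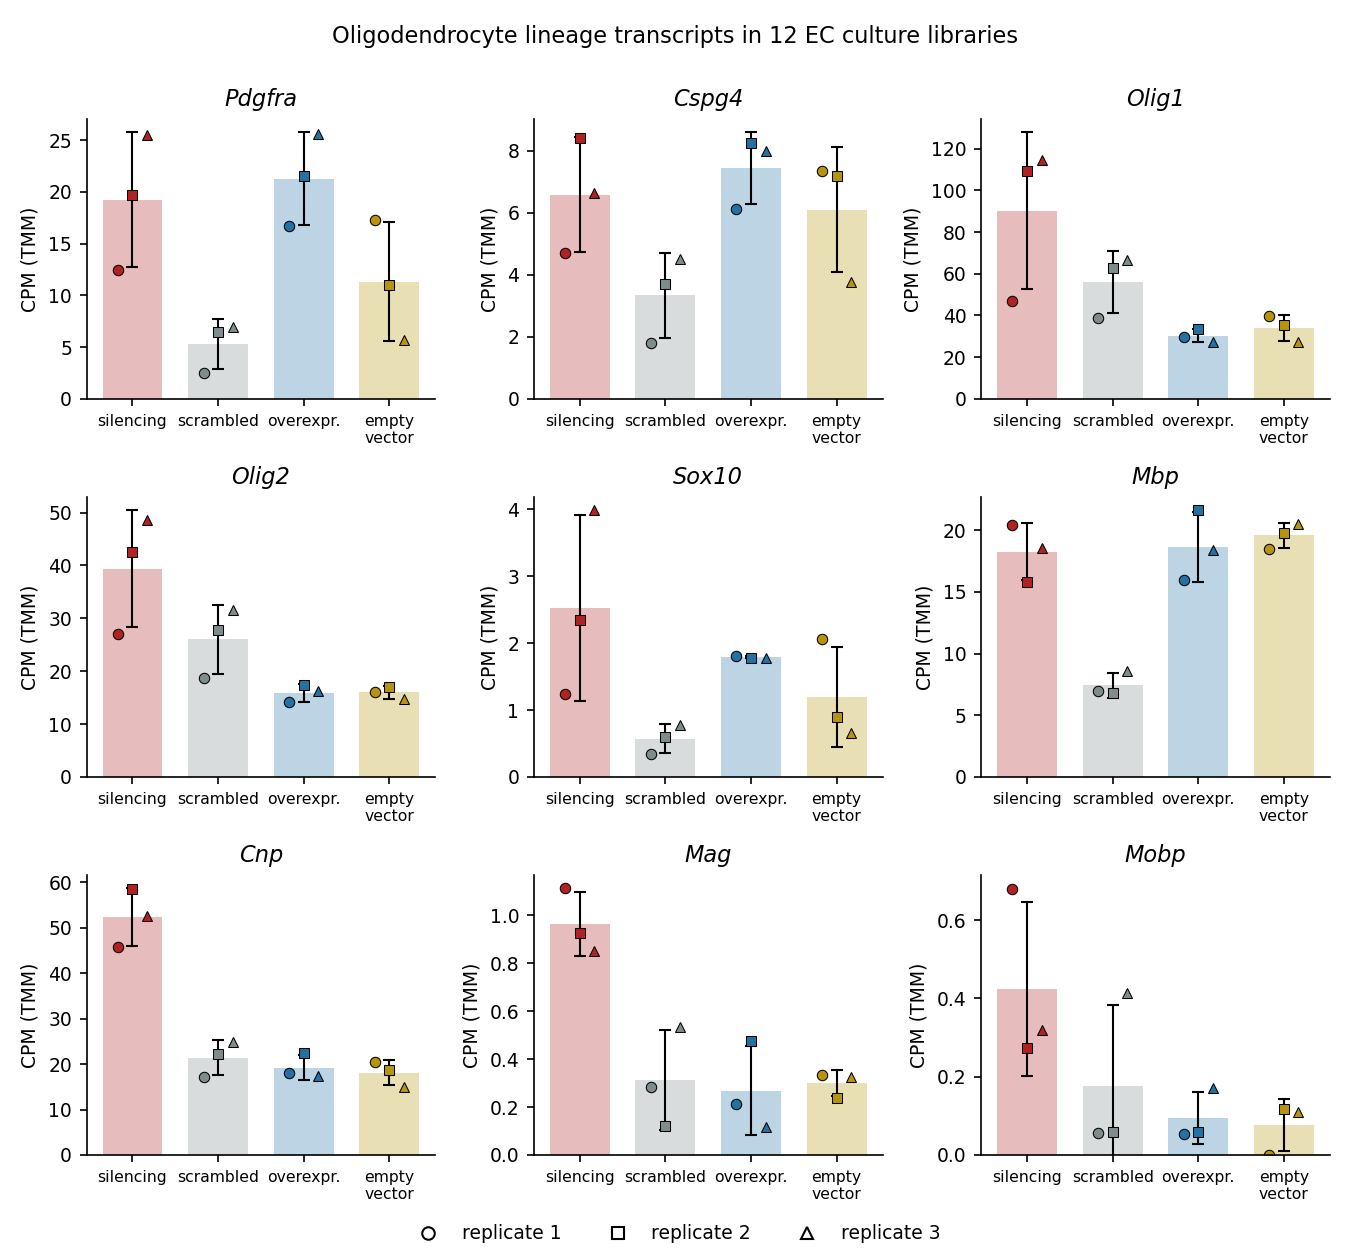
CPM of each of the 9 members (y axis, linear, TMM-normalized) in the Dek silencing, scrambled control, Dek overexpression and empty vector control groups. Bars are means, error bars are the SD of 3 libraries, and symbols are single libraries; Cnp and Mag stand out in silencing, whereas Mbp is low only in the scrambled control.

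Levels of different genes were compared per kilobase of annotated exon. In silencing, Olig1 was at 41.8 ± 17.4 CPM per kb, Cnp at 22.2 ± 2.7 and Olig2 at 15.6 ± 4.38 (mean ± SD, n = 3), while Mbp was at 2.25 ± 0.286 and Pdgfra at 2.20 ± 0.745. Sox10 had 0.908 ± 0.498, Cspg4 0.810 ± 0.227, Mag 0.395 ± 0.0554 and Mobp 0.0905 ± 0.0476 CPM per kb. Within this order Mbp and Pdgfra, and Sox10 and Cspg4, differed by less than their SD. In the empty vector control the upper end was the same, with Olig1 at 15.8 ± 2.94, Cnp at 7.68 ± 1.18, Olig2 at 6.32 ± 0.465 and Mbp at 2.41 ± 0.127 CPM per kb, and Cnp and Olig2 then differed by little more than the SD of Cnp. The exon length of Mbp includes the golli exons, so its level per kb is low for the myelin transcripts.

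Between silencing and the scrambled control, the pair matched by the study, 6 of 8 members tested were higher and none was lower, where 26.2% of all 14232 genes tested were called higher and 28.5% lower. The 6 were Pdgfra, Cspg4, Sox10, Mbp, Cnp and Mag, and the median log2FC of the 8 was 1.28, against −0.0011 over all genes. Mag passed the filter only through the silencing libraries, where it was high. Its place among the 6 and the 8 is thus not independent of its level there. The members were chosen with earlier results of these data known, so the count of 6 of 8 is not an independent test. The call for Cspg4 was lost without silencing replicate 2 (adjusted p = 0.10), silencing replicate 3 (0.086) or scrambled replicate 2 (0.064) and with no filter on low counts (0.056), that for Pdgfra without silencing replicate 2 (0.053) and that for Mag without scrambled replicate 2 (0.052). Without silencing replicate 1, Olig1 (0.038) and Olig2 (0.024) passed, and Olig2 also passed with all 12 libraries in a single fit (0.037). With the replicate number as a block, Olig1 (0.00033) and Olig2 (5.1e-06) also passed. The numbers did not pass the check for pairing, which cannot exclude a pairing within this arm alone.

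Between silencing and the empty vector control, 4 of 8 members tested were higher and none was lower (Cnp, Mag, Olig1 and Olig2), where 34.0% of 14292 genes were called higher and 33.5% lower, so the members' count was near the share of all genes. The median log2FC was 1.20 over the 8 members and 0.02 over all genes. Here too Mag was among the 8 only through the silencing libraries. The log2FC of Olig1 ran from 1.07 to 1.70 over the alternatives, and its call was lost without any single one of the 3 empty vector libraries or of silencing replicates 2 and 3 (adjusted p between 0.092 and 0.12), with no filter (0.06) and with a correction for GC content and length (0.052). Sox10 passed without silencing replicate 1 (0.007) or without empty vector replicate 1 (0.015). The silencing group is the same in both comparisons, which are therefore not independent.

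None of the 7 members tested was called between Dek overexpression and its matched empty vector control, in a comparison where 0.00710% of 14089 genes were called higher (a single gene, Dek) and 0% lower. The log2FC was −0.07 for Mbp (SE 0.11, adjusted p = 0.94), 0.09 for Cnp, −0.17 for Olig1, 0.57 for Sox10 and 0.91 for Pdgfra. No member reached an unadjusted p below 0.05, as 930 of all genes did, and none was called by the DESeq2 Wald test or limma-voom either. For Pdgfra, overexpression replicate 1 (16.7 CPM) and empty vector replicate 1 (17.3 CPM) were alike, and empty vector replicates 2 and 3, at 11.0 and 5.73 CPM, lay below all overexpression libraries.

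Against the scrambled control, overexpression gave 4 members higher (Mbp, Pdgfra, Cspg4 and Sox10) and 2 lower (Olig1 and Olig2) of 7 tested, where 20.2% of 14081 genes were called higher and 19.8% lower. Mbp had a log2FC of 1.32 (SE 0.14, adjusted p = 4.9e-05). Cnp, at −0.16 (adjusted p = 0.39), did not pass. Olig1 was no longer called without overexpression replicate 2 or replicate 3, nor was Olig2 without overexpression replicate 3 (adjusted p = 0.057). The scrambled libraries are the same as in the comparison with silencing.

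The controls were set against each other to see how far a member's result turned on the choice of control. Mbp was lower in the scrambled control than in the empty vector control, and Olig2 was higher (log2FC = 0.70, SE 0.19, adjusted p = 0.020), among 7 members tested, where 21.3% of 14096 genes were called higher and 21.8% lower. Pdgfra (log2FC = −1.11, adjusted p = 0.20), Cspg4 (−0.87, adjusted p = 0.095) and Sox10 (−1.08, adjusted p = 0.089) had lower means in the scrambled control, and Olig1 (0.72, adjusted p = 0.094) and Cnp (0.24, adjusted p = 0.23) higher means, none of which passed. The call of Olig2 was lost without empty vector replicate 1, empty vector replicate 3 or scrambled replicate 2. Hairpin, promoter and any difference in culture between the arms cannot be told apart here.

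**Figure D2:**
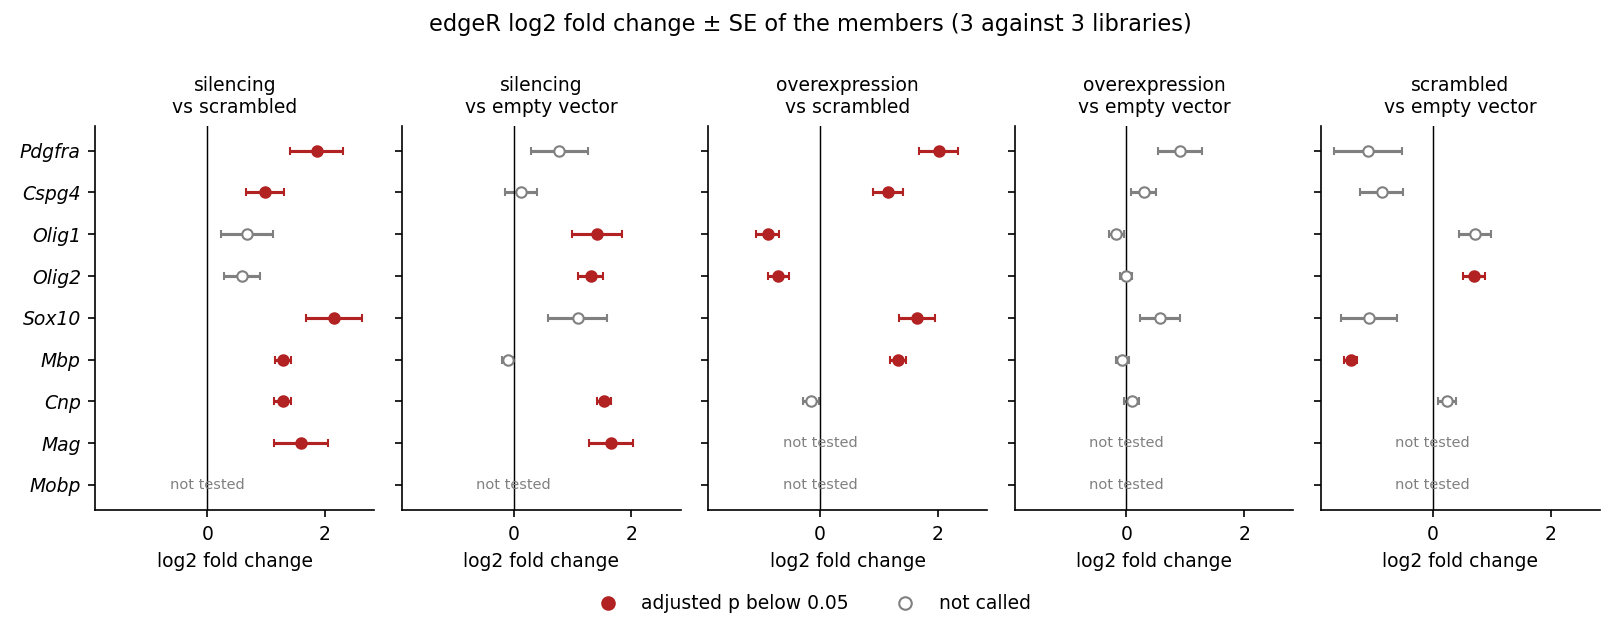
edgeR log2 fold change (x axis) with its SE for each member (rows) in 5 comparisons of 3 against 3 libraries, the group named on top divided by the group below it. Filled red points passed an adjusted p below 0.05 over all genes; Cnp is to the right of 0 in both silencing comparisons, and Mbp is near 0 in the comparisons of silencing and of overexpression with the empty vector control.

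The response to silencing minus the response to overexpression, each against its own control, was tested in a fit of all 12 libraries. It passed for Mbp (log2 difference 1.36, SE 0.18, adjusted p = 7.1e-06) and Cnp (1.21, SE 0.21, adjusted p = 0.0003), 2 of 8 members tested, where 20.4% of 14604 genes were higher and 22.7% lower in this contrast. Mag (1.78, adjusted p = 0.066), Sox10 (1.59, adjusted p = 0.065), Pdgfra (0.97, adjusted p = 0.28), Cspg4 (0.70, adjusted p = 0.24), Olig1 (0.86, adjusted p = 0.20) and Olig2 (0.61, adjusted p = 0.16) did not pass, so for them the effects of the 2 treatments are not shown to differ. Without silencing replicate 1, 5 members passed.

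Most members varied between wells of a group more than genes of like level did. The SD of log2 CPM within groups was 0.64 for Pdgfra, larger than in 99.9% of 1141 genes of like level, whose median was 0.13, and 0.45 for Olig1, larger than in 99.9% of 1562 genes, whose median was 0.09. The corresponding shares were 98.3% for Olig2 and Cspg4, 96.6% for Cnp, 96.5% for Sox10, 79.2% for Mbp, 68.9% for Mobp and 56.5% for Mag. The deviations followed the wells: in both silencing and the scrambled control, replicate 1 was the lowest of the 3 for Pdgfra, Cspg4, Olig1, Olig2, Sox10 and Cnp, and in the empty vector control replicate 3 was the lowest for these 6 genes. In silencing replicate 1, Olig1 was 0.83 and Sox10 0.82 below the group mean on the log2 scale, and in empty vector replicate 3 Pdgfra was 0.83 below. Mbp did not follow the wells, being highest in silencing replicate 1.

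**Figure D3:**
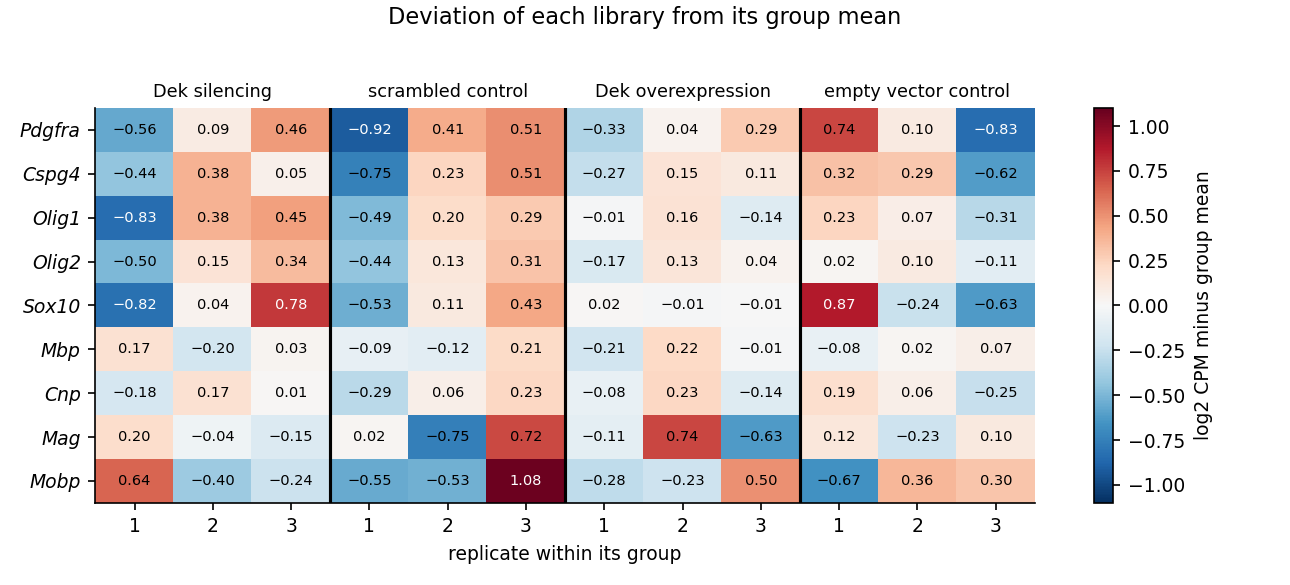
Log2 CPM of each member (rows) minus the mean of its group, in each of the 12 libraries (columns, replicates within groups). Blue cells are below and red cells above the group mean; replicate 1 of silencing and of the scrambled control and replicate 3 of the empty vector control are blue from Pdgfra to Sox10.

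Other cell types moved with the wells in a like way. The 12 astrocyte markers, none of them at 0 in all 12 libraries, summed to 760, 1154 and 1142 CPM in silencing, against 780, 1009 and 1100 in the scrambled control, and to 766, 744 and 770 CPM in overexpression, against 790, 711 and 639 in the empty vector control. None of the 11 astrocyte markers tested was called between silencing and the scrambled control. Between silencing and the empty vector control 4 of 11 were higher, among them Slc39a12 (log2FC = 1.17, adjusted p = 0.0095) and Aldh1l1 (0.87, adjusted p = 0.036), a count near the 34.0% of all genes called higher there. In overexpression 3 of 11 were lower than in the scrambled control, where 19.8% of all genes were, and 4 of 11 were higher in the scrambled control than in the empty vector control, where 21.3% of all genes were. The 10 progenitor and cycling cell markers, none at 0 in any library, summed to 269, 392 and 451 CPM in silencing, against 279, 366 and 405 in the scrambled control. Of 9 tested, 2 were higher in silencing, where 26.2% of all genes were. They were Mki67 (log2FC = 1.01, adjusted p = 0.015) and Cdk1 (1.19, adjusted p = 0.017), both of dividing cells. Both were also lower in the scrambled control than in the empty vector control, at −0.79 (adjusted p = 0.028) and −1.05 (adjusted p = 0.0074). In overexpression both were higher than in the scrambled control, at 0.84 (adjusted p = 0.018) and 1.11 (adjusted p = 0.0072). The part of these cells in the members' values was not tested.

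Pericytes also use Cspg4, and their 9 markers summed to 22.7 to 29.9 CPM in silencing, against 15.6 to 19 in the scrambled control. Of 5 tested, 2 were higher, where 26.2% of all genes were: Rgs5 (log2FC = 1.89, adjusted p = 1.7e-06) and Abcc9 (1.36, adjusted p = 0.009). Rgs5 was also lower in the scrambled control than in the empty vector control (−1.27, adjusted p = 0.00012). Abcc9 did not pass the filter on low counts between overexpression and the scrambled control or between the controls. Its place among the 2 and the 5 is thus not independent of its level in silencing. Of that list Kcnj8 was at or near 0. The fibroblast list, which includes Pdgfra itself, summed to 37.1 to 47.4 CPM in silencing, against 21.6 to 34.2 in the scrambled control. Pdgfra alone ran from 12.5 to 25.5 CPM in silencing and from 2.50 to 6.93 in the scrambled control. The sum therefore does not show a rise of the other genes of that list. Of its 6 genes tested Pdgfra was the only one higher, and Fn1 was lower (log2FC = −0.48, adjusted p = 0.026). In the Schwann cell list, which holds Sox10, Foxd3 had a single count in the 12 libraries, Pmp2 was near 0 and the sum was 36.2 to 38.3 CPM in silencing, against 35.5 to 36.3 in the scrambled control. The part of these cell types in the values of Cspg4, Pdgfra and Sox10 was not tested.

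**Figure D4:**
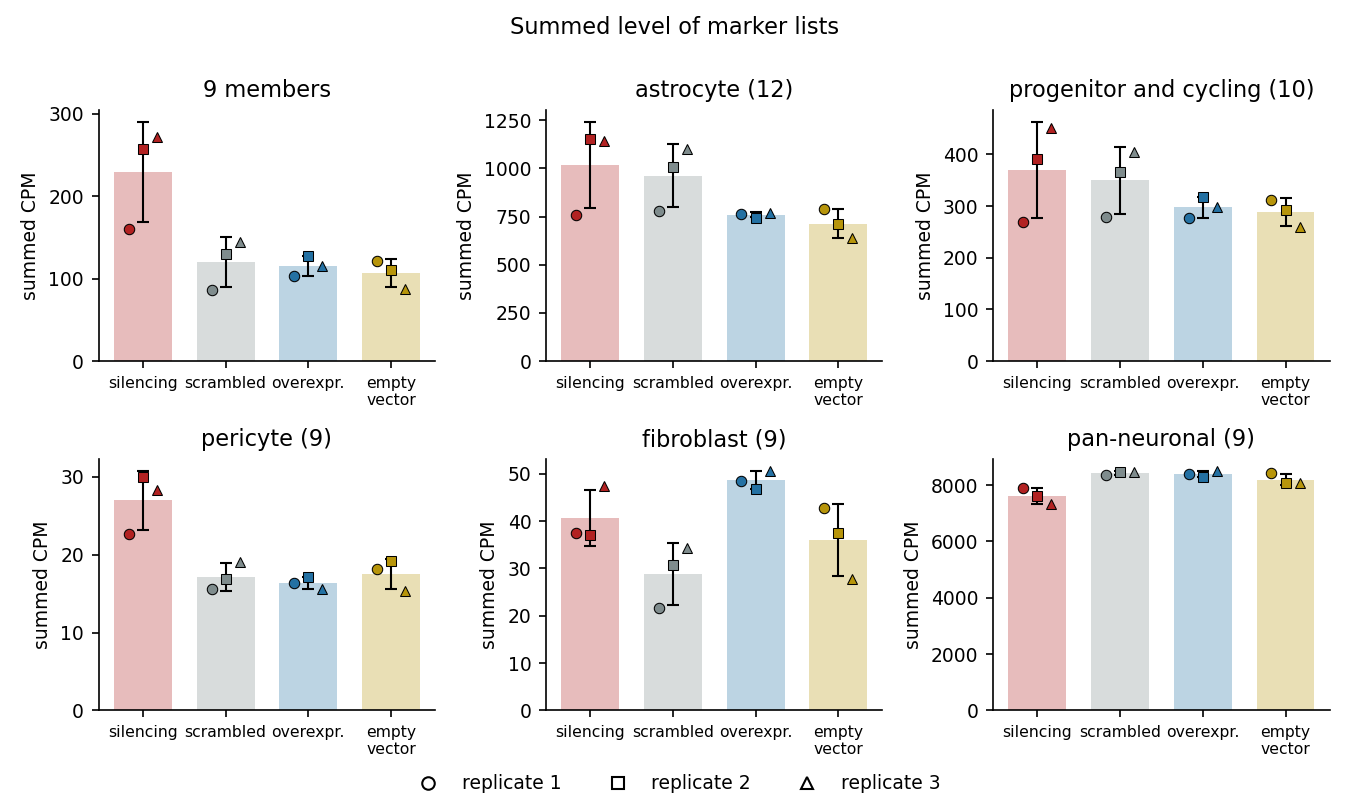
Summed CPM (y axes, linear) of the 9 members and of 5 marker lists in the 4 groups, with the number of genes of each list in its title. The fibroblast list includes the member Pdgfra. Bars are means, error bars are the SD of 3 libraries and symbols are single libraries; silencing and scrambled replicates 1 are the lowest of their groups for the members, the astrocyte list and the progenitor and cycling list.

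Other genes of the lineage did not share a direction. Of 58 tested in 3 further lists, 15 were higher in silencing than in the scrambled control and 14 were lower, both near the shares of all genes. The lists differed, and 9 of the 14 lower genes were in the list of transcription factors and chromatin regulators. Among 13 precursor genes 4 were higher, led by Tnr (log2FC = 0.87, adjusted p = 6e-05), Cacng4 (0.42, adjusted p = 0.0014) and Vcan (0.54, adjusted p = 0.0023), and Megf11 was lower (−0.38, adjusted p = 0.00045). Tnr and Vcan, which encode extracellular matrix proteins that neurons and astrocytes may also make, turned the other way against the empty vector control, with Tnr at −0.65 (adjusted p = 0.00021) and Vcan at −0.54 (adjusted p = 0.00021). In overexpression both were higher than in the scrambled control (1.56, adjusted p = 5.1e-06 for Tnr, and 1.22, adjusted p = 7.9e-06 for Vcan). Like Mbp, both were also lower in the scrambled control than in the empty vector control (−1.535, adjusted p = 9.8e-07 for Tnr, and −1.095, adjusted p = 2e-06 for Vcan, edgeR). Pdgfra did not pass in that comparison (−1.11, adjusted p = 0.20).

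Of 23 further myelin and mature oligodendrocyte genes, 8 were higher in silencing than in the scrambled control and 4 were lower, beside 26.2% and 28.5% of all genes. The list summed to 668.1 to 733.4 CPM in silencing and 549.5 to 551.6 in the scrambled control. It summed to 577.2 to 608.4 in overexpression and 603.7 to 610.2 with the empty vector. The precursor list's sums in silencing and the scrambled control overlapped, and those of the transcription factor list were lower in silencing. Nfasc, the neurofascin gene that neurons also use (log2FC = 0.61, adjusted p = 1.6e-06), and Cdc42ep2 (0.76, adjusted p = 1.1e-05) were among those that were higher. Ndrg1 (−1.18, adjusted p = 1.8e-07), Tspan2 (−0.79, adjusted p = 0.00053) and Gpr37 (−1.02, adjusted p = 0.0016) were lower, and so was Mog, a gene of the outer myelin surface that was picked out here after its values were seen (−1.19, adjusted p = 0.0077). Against the empty vector control, where 34.0% of all genes were higher and 33.5% lower, 10 of 26 were higher and 4 lower. In that comparison Ndrg1, Tspan2 and Gpr37 were lower again, at −1.64, −1.38 and −1.60.

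Of 22 further transcription factors and chromatin regulators of the lineage, 3 were higher in silencing than in the scrambled control and 9 were lower, beside 26.2% and 28.5% of all genes. Myrf, which switches on myelin genes (log2FC = 1.64, adjusted p = 0.0021), Chd7, a remodeller that works with SOX10 (0.91, adjusted p = 0.00041), and Id2, an inhibitor of basic helix-loop-helix factors (0.24, adjusted p = 0.0059), were the higher ones. Hdac2 (−0.83, adjusted p = 1.6e-07), Smarca4 (−0.59, adjusted p = 1.8e-06) and Zfp365 (−0.65, adjusted p = 3.1e-06) led the lower ones. Hdac2 and Smarca4 act on chromatin in many cell types. Myrf rested on 83 counts in silencing, against 25 in the scrambled control and 44 in the empty vector control. Against the empty vector control 5 of 22 were higher, among them Id2 at 0.76 and Chd7 at 0.59, and 8 were lower.

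Among signals that act on precursors and their receptors, 7 of 29 were higher in silencing than in the scrambled control and 5 were lower, where 26.2% of all genes were higher and 28.5% lower. Cntfr, the receptor subunit for ciliary neurotrophic factor (log2FC = 0.65, adjusted p = 3.9e-06), Fgfr1 (0.70, adjusted p = 1.3e-05) and Bmpr1a (0.38, adjusted p = 0.00063) were higher, and Lifr (−0.77, adjusted p = 0.00012), Ptch1 (−0.49, adjusted p = 0.0016) and Pdgfc (−0.50, adjusted p = 0.0073) were lower. Against the empty vector control 14 of 30 were higher, led by Cntfr (1.38), Fgfr1 (0.88) and Smo (1.61), and 5 were lower, where 34.0% of all genes were higher and 33.5% lower. In overexpression no gene of these 4 lists was called against the empty vector control.

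**Figure D5:**
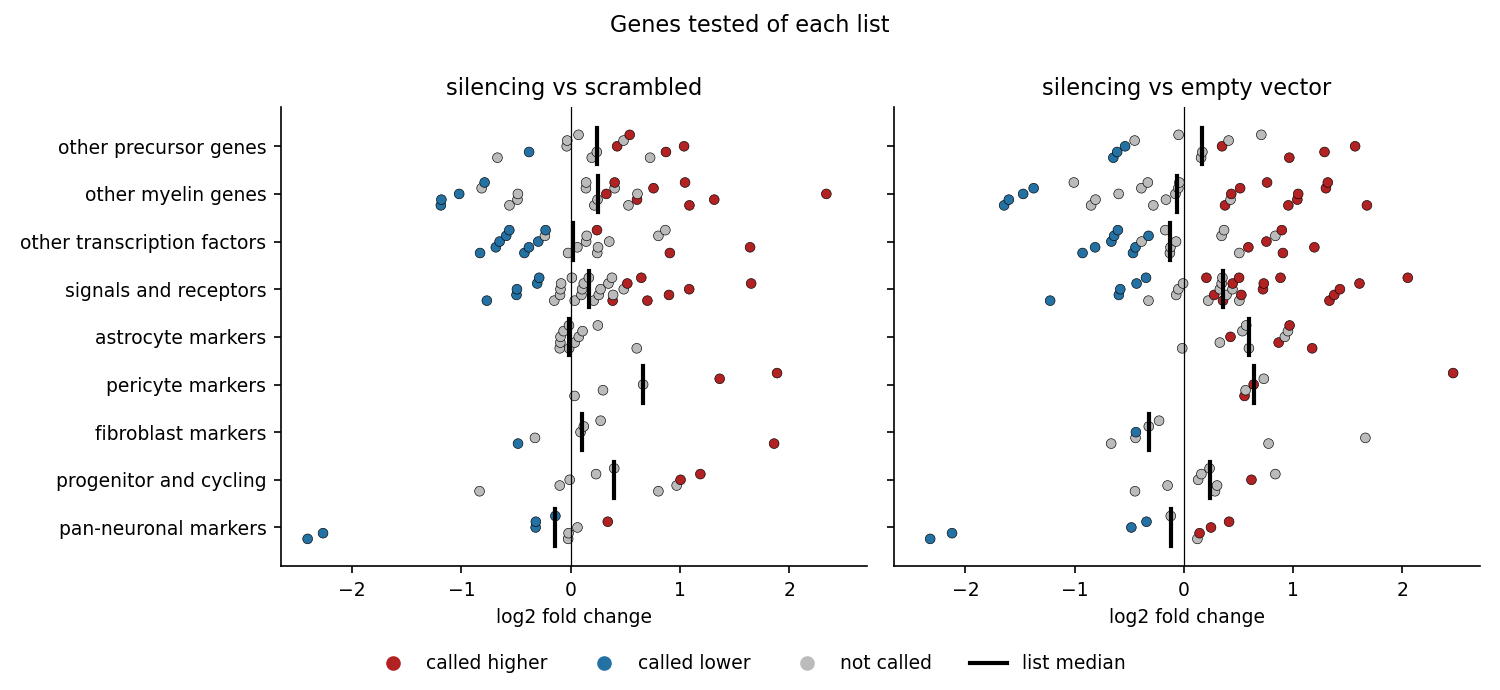
Log2 fold change (x axis) of the tested genes of 9 lists (rows) in silencing against the scrambled control and against the empty vector control; each point is a gene, red or blue where it was called higher or lower, and the black bar is the list's median. Genes of the other lineage lists lie on both sides of 0.

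The genes whose profiles over the 12 libraries were nearest to those of the members differed between members. Distance was the root mean square difference of centred log2 CPM. Nearest to Cnp were Phka1 (0.11), Fam109a (0.12) and Samd14 (0.12), and nearest to Mbp were Fam198b (0.16), Nkain3 (0.24) and Clgn (0.24). Bcan (0.14), Cpt1a (0.15) and Acadl (0.15) were nearest to Olig1, and Lxn (0.09), Acadl (0.13) and Pbxip1 (0.13) to Olig2, so that Acadl was near both. Top2a and Mki67, genes of dividing cells, were the nearest pair for both Cspg4 (0.25 each) and Pdgfra (0.54 and 0.57), although the larger distances show that no gene tracked Pdgfra closely. Lxn averaged 33.8 CPM in silencing, 23.4 with the scrambled hairpin, 15.2 in overexpression and 15.1 with the empty vector, and so, like Olig2, was highest in silencing and next in the scrambled control.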

How the data were processed

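RNA was taken from 12 wells of primary EC culture, and libraries were made from 200 ng of RNA. The authors deposited estimated counts per gene, and the submitters' processing notes name Salmon, DESeq2 and mm10, without versions. Library totals ranged from 15679567 to 18933382, and 38.6% of the values were not whole. Counts were rounded. Each pair of groups was fitted alone in R 4.3.3 with edgeR 4.0.16, using filterByExpr, TMM factors and its quasi-likelihood test with robust dispersions. Calls were made where the p adjusted by Benjamini-Hochberg across the genes of the fit was under 0.05. CPM were scaled by TMM over all 12 libraries. The test was checked on simulated counts. Libraries of a group differed by more than counting noise (chi-square per degree of freedom 1.75 to 12.8). Nothing states that wells came from separate dissections, so p-values measure the spread between wells.

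The 9 members and the 14 other lists, of cell types, lineage genes and signals, were chosen with earlier results of these data known. Named genes are the members, Dek, up to 3 genes per direction and list with the smallest adjusted p, any gene of lists of at most 12, genes at 0, and the 3 genes with at least 5 CPM nearest in profile to each member of at least 2 CPM. A few genes that this rule admits are not reported here. Levels per kilobase used the exon length of GENCODE on GRCm38. Motifs were searched in RefSeq promoter windows of GRCm38.p6. Genes of like level had a mean within a factor of 1.25.

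Alternatives were DESeq2 1.42.0 size factors and Wald test, limma 3.58.1 voom, library size scaling, no filter, a minimum of 1 CPM in 3 libraries, a single fit of all 12 libraries, the replicate block, a correction for GC content and length, and each library left out.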

Additional observations from a re-analysis of the deposited data

Results flagged for a closer look

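The responses of Mbp and Cnp to Dek silencing and to Dek overexpression, each against its own control, differed by the test of the difference itself. For Mbp the silencing response exceeded the overexpression response by 1.36 on the log2 scale (SE 0.18, adjusted p = 7.1e-06, edgeR), and for Cnp by 1.21 (SE 0.21, adjusted p = 0.0003). The values behind them differ in kind: Cnp was at 52.3 ± 6.37 CPM in silencing, against 21.4 ± 3.86 in the scrambled control, 19.2 ± 2.73 in overexpression and 18.1 ± 2.78 with the empty vector (SD, n = 3), whereas Mbp was at 18.3 ± 2.32 CPM in silencing, against 7.43 ± 1.00 in the scrambled control, 18.7 ± 2.83 in overexpression and 19.6 ± 1.03 with the empty vector. Mbp was thus low in the scrambled control only. Against the empty vector control its log2FC was −1.40 (adjusted p = 8.9e-07, edgeR) for the scrambled control and −0.10 (adjusted p = 0.41) for silencing.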

How the results depend on the processing

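No member changed direction where it was called. In silencing against the scrambled control and against the empty vector control, the numbers of members called stayed within 1.5 times under each alternative. Overexpression against the scrambled control had 2 members lower, and 1 with no filter, 1 with all 12 libraries in a single fit, 0 with the correction for GC content and length, and 0 to 2 with a library left out. The scrambled control against the empty vector control had 1 member higher, and 2 with the DESeq2 Wald test, 2 with limma-voom, 0 with no filter, 0 with the GC and length correction and 0 to 3 with a library left out. It had 1 member lower, and 2 with the DESeq2 Wald test and 1 to 3 with a library left out. The difference of the responses had 2 members higher, and 2 to 5 with a library left out. Between silencing and the empty vector control, Sox10 was called by the DESeq2 Wald test (adjusted p = 0.034) and with all 12 libraries in a single fit (0.03), and Pdgfra by limma-voom (0.043). The cause was not tested.

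The replicate numbers did not pass the check for pairing, which asked for r above 0.1 in every same-numbered pair of libraries, across both arms. Same-numbered libraries of silencing and the scrambled control deviated with r of 0.30, 0.13 and 0.07, and differently numbered ones with r from −0.23 to 0.15. The check cannot exclude a pairing within this arm alone. With the number as a block, Olig1 and Olig2 were called between silencing and the scrambled control (adjusted p = 0.00033 and 5.1e-06), 4208 genes were higher and 4412 lower, and Olig1 was not called against the empty vector control (0.084). The block combined with the GC correction was not run. Scaling by library size moved the calls of silencing against the scrambled control to 4793 higher and 3210 lower, from 3730 and 4060, and those of the response difference to 3755 higher and 2733 lower, from 2972 and 3315. Overexpression against the empty vector control had 1 gene called, 4 by the DESeq2 Wald test and 7 with no filter. Mag and Mobp, below 1 CPM on average, are limited by counting, and single calls of Olig1, Cspg4 and Sox10 by the spread of 3 wells.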
